A study of Mus musculus with 20 samples.

Results

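Laminins are the network-forming proteins of basement membranes, the thin matrix sheets that wrap each adipocyte, capillary, nerve bundle and mesothelial layer of visceral adipose tissue (VAT). Each laminin is a trimer of 1 alpha, 1 beta and 1 gamma chain. The alpha chain carries the domains that bind integrins and dystroglycan at the cell surface, whereas the beta and gamma chains complete the trimer and help it to polymerize. A different gene encodes each chain, and tissues differ mainly in the alpha chain that they use.

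The chains examined were Lama1, Lama2, Lama3, Lama4 and Lama5 (alpha), Lamb1, Lamb2 and Lamb3 (beta) and Lamc1 (gamma), taken as every non-control spot that carries 1 of these 9 gene names. They held 27 spots of the 59305 non-control spots on the array, with 1 to 5 probes per gene, and 25 of these probes passed the filter on dim signal, of 39390 probes tested in all. The array names 37074 genes in all. Every one of the 9 kept at least 1 tested probe, of 25618 genes tested. The family was chosen by the measured level of Lama1, which was far lower under the high-fat diet, so its differences between groups are given as a description with no test, and Lama1 is in no count of changed chains. The other 8 chains entered by name. Lamc3, another gamma chain, is given beside them.

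VAT was the epididymal fat of male C57bl/6J mice of the third generation, profiled on 1-colour Agilent arrays. Ref (n = 6) came from a lineage given high-oleic sunflower oil and ate a low-fat reference diet. HFoleic (n = 6) came from that same oleic lineage and HFepa (n = 8) from a lineage given fish oil rich in EPA, the omega 3 fatty acid eicosapentaenoic acid, and both then ate an obesogenic diet high in fat and sucrose. Ref and HFoleic therefore differ in diet, HFoleic and HFepa in lineage, and Ref and HFepa in both, and no EPA lineage on the reference diet was analysed here. Both contrasts against Ref share the 6 Ref arrays, and HFepa vs. HFoleic shares arrays with each of them.

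The 20 arrays lay on 3 slides, each with all 3 groups, at 1 to 3 arrays per group and slide. Between 66.1% and 71.9% of spots were well above background on each array, the median raw signal ran from 83 to 114, and no spot was saturated. All 10 adipocyte markers were tested, and their mean level was 15.93 to 16.62 on the normalized log2 scale in every array. All levels below are quantile-normalized log2 median signals, called log2 levels. Levels of different probes are not comparable, so genes are compared by their differences between groups only, and a gene is represented by its brightest tested probe unless another probe is named.

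The probes that measured the chains with the clearest differences are shown here, because they decide which part of a transcript was read. Positions are in mm9, as the scanner files give them. The Lama1 probe lay at chr17:68171924-68171983 on the plus strand, 9456 bases into the transcript. Only the first 30 of its 60 bases are printed. The brightest Lama4 probe lay at chr10:38825794-38825853 (plus strand) and a further one upstream at chr10:38773604-38773663, and the second Lamb3 probe reached from chr1:195167088 to 195169619 (plus strand). The Lamb3 probe spanned 2532 genomic bases for 60 bases of sequence, so that it crosses an intron and reads spliced RNA.
Lama1 probe, first 30 bases: atgttgaactaaagccacacggacaacaga
Lama4 brightest probe: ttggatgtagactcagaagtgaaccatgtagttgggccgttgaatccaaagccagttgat
Lama4 upstream probe: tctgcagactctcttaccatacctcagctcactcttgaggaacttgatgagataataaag
Lamb3 junction probe: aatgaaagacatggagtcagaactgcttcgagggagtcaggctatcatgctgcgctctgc

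Lama1 encodes an alpha chain best known from embryonic and epithelial basement membranes. In Ref its log2 level was 8.72, 9.47, 8.74, 9.53, 9.43 and 8.56 in replicates 2 to 7. In HFoleic it was 6.83, 6.21, 7.49, 5.42, 6.02 and 5.57 in replicates 1, 4, 5, 6, 7 and 8. In HFepa it was 5.13, 7.68, 8.74, 8.65, 6.35, 5.28, 7.97 and 6.93 in replicates 1 to 8. Every HFoleic array was below every Ref array, whereas HFepa was spread widely, with replicates 3 and 4 inside the Ref range and replicates 1 and 6 not well above background, as were HFoleic replicates 6 and 8. The low values of these 4 arrays have no order among themselves.

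The mean log2 level of Lama1 was 9.08 ± 0.45 in Ref, 6.26 ± 0.78 in HFoleic and 7.09 ± 1.41 in HFepa (SD). The difference from Ref was -2.82 log2 units in HFoleic (7.05-fold lower, SE 0.55) and -1.99 in HFepa (3.96-fold lower, SE 0.52). HFepa was 0.83 above HFoleic (SE 0.52). The order was Ref, HFepa, HFoleic, and the last 2 overlapped. These differences are a description, since Lama1 was chosen for them.

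Much of the low end of Lama1 was near the array background. The probe was well above background on every Ref array, on 4 of 6 in HFoleic and on 6 of 8 in HFepa, and the 4 arrays below that limit had raw signals of 36 to 50 against 333.5 to 665 in Ref. A second Lama1 probe, 65.7 kb upstream, was above background on 3 of 6 Ref arrays and on none of the 14 high-fat arrays, and was not tested. With background-subtracted signals scaled to the 75th percentile in place of quantile normalization, the HFoleic difference became -3.85. With normexp background correction (offset 50) and quantile normalization it was -2.45. On each of the 3 slides HFoleic was below Ref, by -3.16 to -2.33, and HFepa was below Ref, by -2.96 to -0.74. Slide 2 held only 1 HFoleic array.

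**Figure D1:**
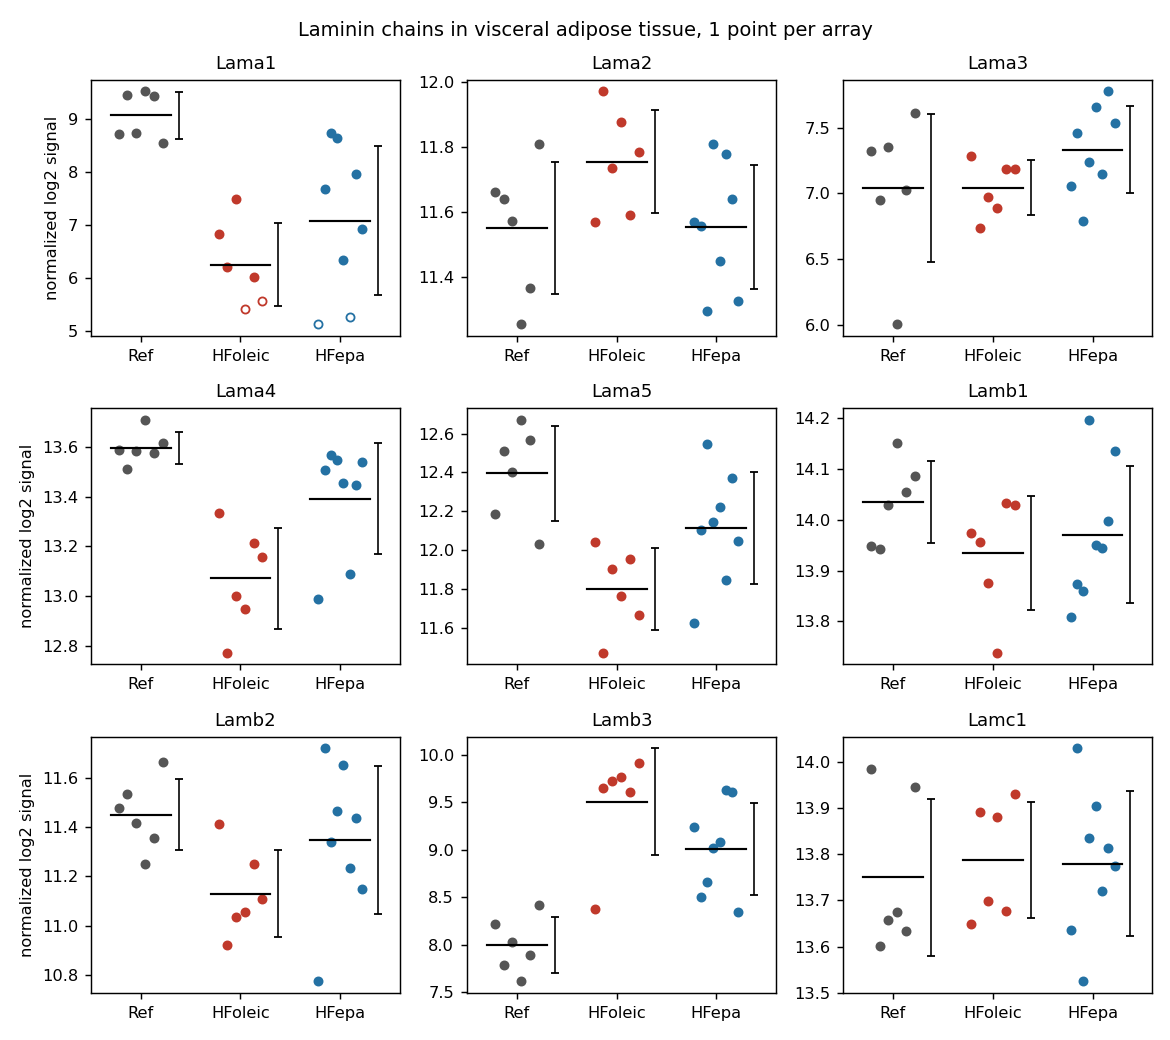
Log2 level of the 9 laminin chains in each array, by group; the black line is the group mean, the bar its SD, and open points are arrays where the probe was not well above background. All 6 HFoleic arrays lie below all 6 Ref arrays for Lama1 and Lama4, Lamb3 is higher in HFoleic, and Lamc1 overlaps in all 3 groups. The vertical scale differs between panels.

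Among the other 8 chains, limma called 3 in HFoleic vs. Ref at a Benjamini-Hochberg adjusted p under 0.05, with Lama4 and Lama5 lower and Lamb3 higher. Of all genes, 31.9% were called in this contrast, 15.2% higher and 16.7% lower, so 3 of 8 is near the background. A further chain, Lamb2, had an unadjusted p under 0.05, as 42.2% of all genes did. The median difference of the 8 chains was -0.05, against -0.04 over all genes. In HFepa vs. Ref 1 of the 8 was called, Lamb3, which was higher, where 2.45% of all genes were called, 1.04% higher and 1.41% lower. There 2 of the 8 had an unadjusted p under 0.05, against 21.5% of all genes, and 0 of the 8 did not overlap on the brightest probe, against 1.04%. In HFepa vs. HFoleic none was called by limma, 3 had an unadjusted p under 0.05 (Lama4, Lama5 and Lamb3), and limma with array weights called 2, Lama4 and Lama5, where that setting called 11.6% of all probes. No gene at all was called on its brightest probe in that contrast (0%), 20.8% had an unadjusted p under 0.05, and 0.355% did not overlap, none of the 8 chains among them.

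Lama4 encodes the alpha chain of endothelial basement membranes, and adipocytes make it too. Its log2 level was 13.51 to 13.71 over the 6 Ref arrays and 12.77 to 13.33 over the 6 HFoleic arrays, without overlap. It fell by 0.53 in HFoleic vs. Ref (SE 0.10, adjusted p = 0.00138), and the groups of 14% of all genes did not overlap in this contrast. In HFepa, replicates 1 and 6 were at 12.99 and 13.09, inside the HFoleic range, and the others lay between 13.45 and 13.57. HFepa was 0.20 below Ref (adjusted p = 0.243) and 0.32 above HFoleic (SE 0.10, adjusted p = 0.126). In HFepa vs. HFoleic the call depended on the arrays used, since the adjusted p was 0.0441 without HFoleic replicate 1 and 0.0275 without HFepa replicate 1.

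The other 3 Lama4 probes lay at other positions of the gene, and not all are annotated to the transcript of the brightest probe. In HFoleic vs. Ref they differed by -0.46 (adjusted p = 0.0195), -0.52 (adjusted p = 0.0128) and -0.22 (adjusted p = 0.0760). In HFepa vs. Ref the same 3 probes differed by -0.01, -0.01 and 0.00, against -0.20 for the brightest, and none passed. In HFepa vs. HFoleic all 4 were positive, from 0.22 to 0.51, with adjusted p from 0.118 to 0.159.

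Lama5 encodes the most widely used alpha chain of adult basement membranes and was read by 1 probe at chr2:179911079-179911138. Its log2 level was lowest at 12.03, with a median of 12.46 and a highest of 12.67, in Ref. In HFoleic these values were 11.47, 11.84 and 12.04, and in HFepa 11.63, 12.12 and 12.55. HFoleic and Ref touched only at their edges. Lama5 fell by 0.59 in HFoleic vs. Ref (SE 0.14, adjusted p = 0.00370). HFepa lay between the groups, 0.28 below Ref (adjusted p = 0.227) and 0.31 above HFoleic (adjusted p = 0.189), and neither difference passed.

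Lama2, the alpha chain of muscle and peripheral nerve, did not pass in any contrast. Its difference was 0.20 in HFoleic vs. Ref (95% interval -0.02 to 0.42, adjusted p = 0.150) and 0.00 in HFepa vs. Ref (interval -0.20 to 0.21). Lama3, the alpha chain of epithelial anchoring complexes, had means of 7.04 in both Ref and HFoleic and of 7.33 in HFepa. Its difference in HFoleic vs. Ref was 0.00, with an interval from -0.44 to 0.44, and its highest Ref array was at 7.61. Of the 4 alpha chains that were tested, Lama4 and Lama5 fell in HFoleic vs. Ref, and Lama2 and Lama3 did not pass.

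Lamb3, the beta chain that pairs with Lama3 in epithelial laminin, moved the other way. Its log2 level was 8.22, 7.78, 8.03, 7.62, 7.89 and 8.42 in Ref replicates 2 to 7. It was 8.37, 9.65, 9.73, 9.76, 9.60 and 9.91 in HFoleic replicates 1, 4, 5, 6, 7 and 8. HFepa replicates 1 to 8 had 9.24, 8.50, 8.66, 9.01, 9.08, 9.63, 9.61 and 8.34. Only HFoleic replicate 1 and HFepa replicate 8 were within the Ref range. Lamb3 rose by 1.51 (2.85-fold, SE 0.25, adjusted p = 0.000490) in HFoleic vs. Ref and by 1.02 (2.02-fold, SE 0.23, adjusted p = 0.0314) in HFepa vs. Ref.

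The junction probe of Lamb3 gave 6.37 to 6.98 in Ref, 7.02 to 8.22 in HFoleic and 7.04 to 7.98 in HFepa, with both high-fat groups above every Ref array. It rose by 1.26 (adjusted p = 0.000455) and 0.90 (adjusted p = 0.0243). The third Lamb3 probe, at chr1:195106618-195106677 and far upstream of the others, did not pass and differed by only 0.03 in both contrasts. In HFepa vs. HFoleic Lamb3 was -0.49 (interval -0.98 to -0.01, adjusted p = 0.237), and without HFoleic replicate 1 it was -0.72 (adjusted p = 0.0462). The HFoleic call held in all 20 fits that left out 1 array. The HFepa call held in 12 of them, with adjusted p from 0.0113 to 0.0767, and was lost without HFepa replicate 1, 5, 6 or 7 or Ref replicate 3, 4, 5 or 6. On the 3 slides, with only 1 HFoleic array on slide 2, the differences against Ref were 1.35 to 1.71 in HFoleic and 0.89 to 1.17 in HFepa.

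Lamb2, the beta chain of the neuromuscular junction and of kidney and vessel basement membranes, was at 11.25 to 11.67 in Ref, 10.92 to 11.41 in HFoleic and 10.77 to 11.72 in HFepa. The groups overlapped, and its difference of -0.32 in HFoleic vs. Ref did not pass (95% interval -0.59 to -0.05, adjusted p = 0.0624). It passed without HFoleic replicate 1 (adjusted p = 0.0316), HFepa replicate 1 (0.0216) or HFepa replicate 2 (0.0490). Lamb1, the beta chain of most laminins, differed by -0.10 (interval -0.25 to 0.05, adjusted p = 0.300) in HFoleic vs. Ref and by -0.06 in HFepa vs. Ref. Its 5 probes ran apart in HFoleic vs. Ref, with differences from -0.35 to 0.15, and 1 of them passed (-0.35, adjusted p = 0.0288).

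Lamc1, the gamma chain shared by nearly all laminins outside epithelia, had means of 13.75 ± 0.17 in Ref, 13.79 ± 0.13 in HFoleic and 13.78 ± 0.16 in HFepa. The 95% interval of the difference was -0.15 to 0.22 in HFoleic vs. Ref and -0.14 to 0.20 in HFepa vs. Ref. A second probe overlaps the brightest by 58 bases and gave 0.00 and 0.03. A further probe differed by 0.16 in HFoleic vs. Ref (adjusted p = 0.408). The last probe lay 832 bases into a separately annotated transcript. It differed by 0.51 in HFoleic vs. Ref (adjusted p = 0.0099), against 0.04 for the brightest, so the probes of the gene disagreed.

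Lamc3, a gamma chain of nerve and retina, was at 8.09 to 8.73 in Ref, 7.98 to 8.41 in HFoleic and 8.27 to 8.80 in HFepa. The groups overlapped. Lamc3 fell by 0.33 in HFoleic vs. Ref (SE 0.12, adjusted p = 0.0350). In fits without 1 array this call held in 13 of 20 and was lost without HFoleic replicate 1, 4, 6 or 8 or Ref replicate 3, 5 or 6. It was also lost with the replicate block (adjusted p = 0.114) and with the epididymis (0.0860), mesothelial (0.0710) or macrophage (0.749) marker level as a covariate. It did not pass in HFepa vs. Ref (-0.04, adjusted p = 0.876).

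**Figure D2:**
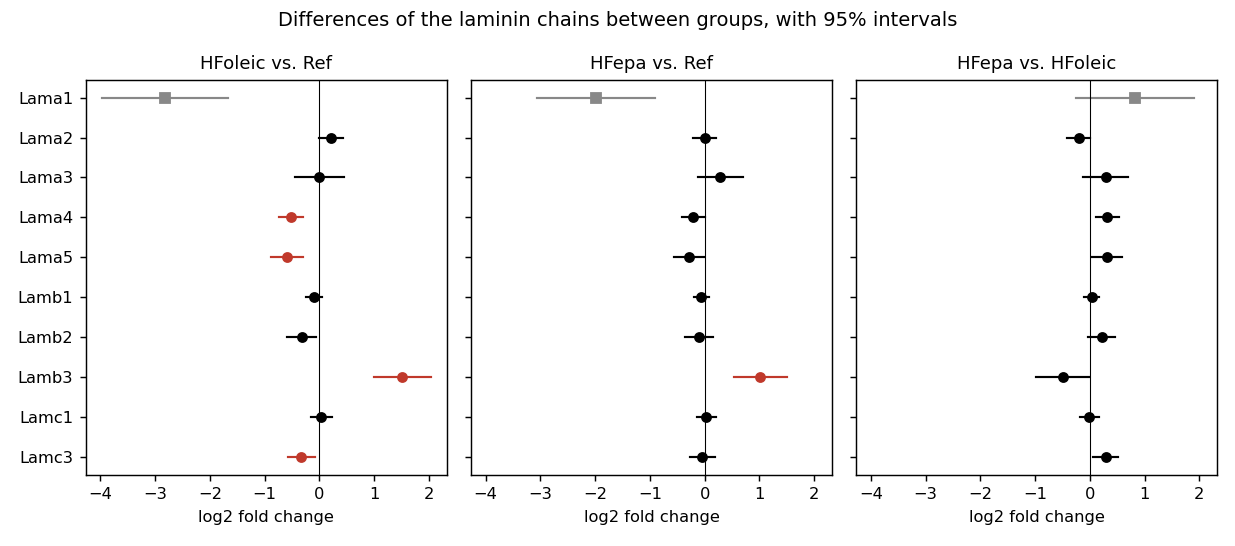
Log2 fold change and 95% interval of 10 laminin chains in the 3 contrasts. Red marks chains with an adjusted p under 0.05. The grey square marks Lama1, which is shown without a test, and its interval is a description only. In HFoleic vs. Ref, Lama4, Lama5 and Lamc3 lie below 0 and Lamb3 at 1.51, whereas only Lamb3 is red in HFepa vs. Ref and none is red in HFepa vs. HFoleic.

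A list of 16 laminin receptors and proteins associated with them, among them Cd151 and the sarcoglycans Sgcb, Sgcd and Sgce, was then examined. Its genes are called receptors for short. Of them 15 were tested and Itga2 was too dim. In HFoleic vs. Ref 9 of 15 passed, 7 higher and 2 lower, with 31.9% of all genes called. The median difference of the list was 0.13. Sdc1, a heparan sulfate co-receptor, rose by 1.07 (SE 0.26, adjusted p = 0.00464). Itga7, an integrin alpha subunit of muscle, rose by 0.46 (adjusted p = 0.0237), and Itga1, a subunit that binds collagen and laminin, by 0.44 (adjusted p = 0.0191). Sdc2 rose by 0.38 (adjusted p = 0.0140), and the sarcoglycans Sgcd and Sgcb, members of the dystroglycan complex, by 0.31 (adjusted p = 0.0285) and 0.29 (adjusted p = 0.00953).

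Itgb1, the common beta subunit of laminin integrins, rose by 0.22 (adjusted p = 0.0487), a call that held in 7 of 20 fits without 1 array. The calls of Sgcd and Itga7 held in 15 and 17 of 20. When the probes of each gene were averaged, the calls of Itga1 (adjusted p = 0.840) and Sgcd (adjusted p = 0.815) were lost. The 2 receptors that fell were Itga3, the alpha subunit that binds laminins with Lama3 or Lama5, by 0.94 (SE 0.19, adjusted p = 0.00151), and Sdc4 by 0.80 (adjusted p = 0.0130). Dag1, dystroglycan itself, differed by 0.08 (adjusted p = 0.586) and Itga6, the other main laminin integrin subunit, by 0.13 (adjusted p = 0.377). In HFepa vs. Ref limma called none of the 15, with 6 at an unadjusted p under 0.05 (21.5% of all genes) and 2 called under array weights (3.69% of all probes). Itga1 was nearest there, at 0.48 (adjusted p = 0.0519), and passed without HFepa replicate 3, 4 or 8 or Ref replicate 7. In HFepa vs. HFoleic none passed, with 4 at an unadjusted p under 0.05 (20.8% of all genes) and 1 called under array weights (11.6% of all probes). Itga3 was 0.62 higher in HFepa (adjusted p = 0.120), and passed without HFoleic replicate 1 (adjusted p = 0.0485) or HFepa replicate 1 (adjusted p = 0.0275).

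The dystroglycan sugar chain that binds the alpha chains is built by a further list of 13 enzymes, all tested. In HFoleic vs. Ref 5 passed, all of them higher, where 31.9% of all genes were called and 15.2% were called higher. Large, the enzyme that polymerizes the laminin-binding glycan, rose by 0.84 (SE 0.15, adjusted p = 0.000794), Pomgnt2 by 0.47 (adjusted p = 0.00427), Pomk by 0.39 (adjusted p = 0.0202), B4gat1 by 0.30 (adjusted p = 0.0322) and Pomt2 by 0.25 (adjusted p = 0.00989). The list median was 0.04. None passed in HFepa vs. Ref or HFepa vs. HFoleic in limma, with 4 and 3 at an unadjusted p under 0.05, against 21.5% and 20.8% of all genes.

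Of 26 other basement membrane genes, all tested, 12 passed in HFoleic vs. Ref, 11 higher and 1 lower, with a list median of 0.21. Of all genes 31.9% were called, 15.2% higher and 16.7% lower. The nidogen Nid2, which bridges laminin and collagen IV, rose by 1.03 (SE 0.30, adjusted p = 0.0124) and Nid1 by 0.40 (adjusted p = 0.0328). The collagen IV chains of most basement membranes rose, Col4a2 by 0.65 (SE 0.15, adjusted p = 0.00368) and Col4a1 by 0.43 (adjusted p = 0.0192), and so did Pxdn, the peroxidase that crosslinks them, by 0.63 (adjusted p = 0.00718). Perlecan (Hspg2) rose by 0.43 (adjusted p = 0.00956), Fbln2 by 0.59 (adjusted p = 0.00355) and Egflam, a dystroglycan ligand, by 0.50 (adjusted p = 0.00546). Smoc2 and Fras1 rose by 0.41 and 0.25.

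Tinagl1, a matrix protein that binds laminin, was the 1 gene of this list that fell, by 0.90 (SE 0.21, adjusted p = 0.00371). Agrin (Agrn), which binds laminin and dystroglycan, differed by -0.08 (adjusted p = 0.716). Sparc, a collagen-binding matrix protein, rose by 0.27 in HFoleic (adjusted p = 0.00208) and 0.21 in HFepa (adjusted p = 0.0461). With background-subtracted signals scaled to the 75th percentile, its HFoleic difference was -0.02 (adjusted p = 0.888). Under median centring, without background subtraction, it was 0.04 and did not pass either (adjusted p = 0.799). Both settings leave out quantile normalization. Sparc was the 1 gene of the list called in HFepa vs. Ref, and that call held in 4 of 20 fits without 1 array. The count in that contrast ran from 0 to 7 when 1 array was left out, with 6 without Ref replicate 7 and 7 without HFepa replicate 3. Those fits called 4.41% and 6.38% of all probes, against 2.26% with all arrays, so calls rose over the whole array there. In HFepa vs. HFoleic limma called none of the 26, with 3 at an unadjusted p under 0.05 (20.8% of all genes) and 2 called under array weights (11.6% of all probes). The other 4 collagen IV chains did not pass in HFoleic vs. Ref, with Col4a3 at -0.29, Col4a4 at -0.32, Col4a5 at 0.24 and Col4a6 at -0.51. Thus 2 of 6 collagen IV chains, perlecan and both nidogens rose in the contrast in which Lama4 and Lama5 fell. In limma with the replicate block the calls of perlecan (adjusted p = 0.0928) and Nid2 (adjusted p = 0.0518) were lost. Those of Lama4 and Lama5 held there.

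**Figure D3:**
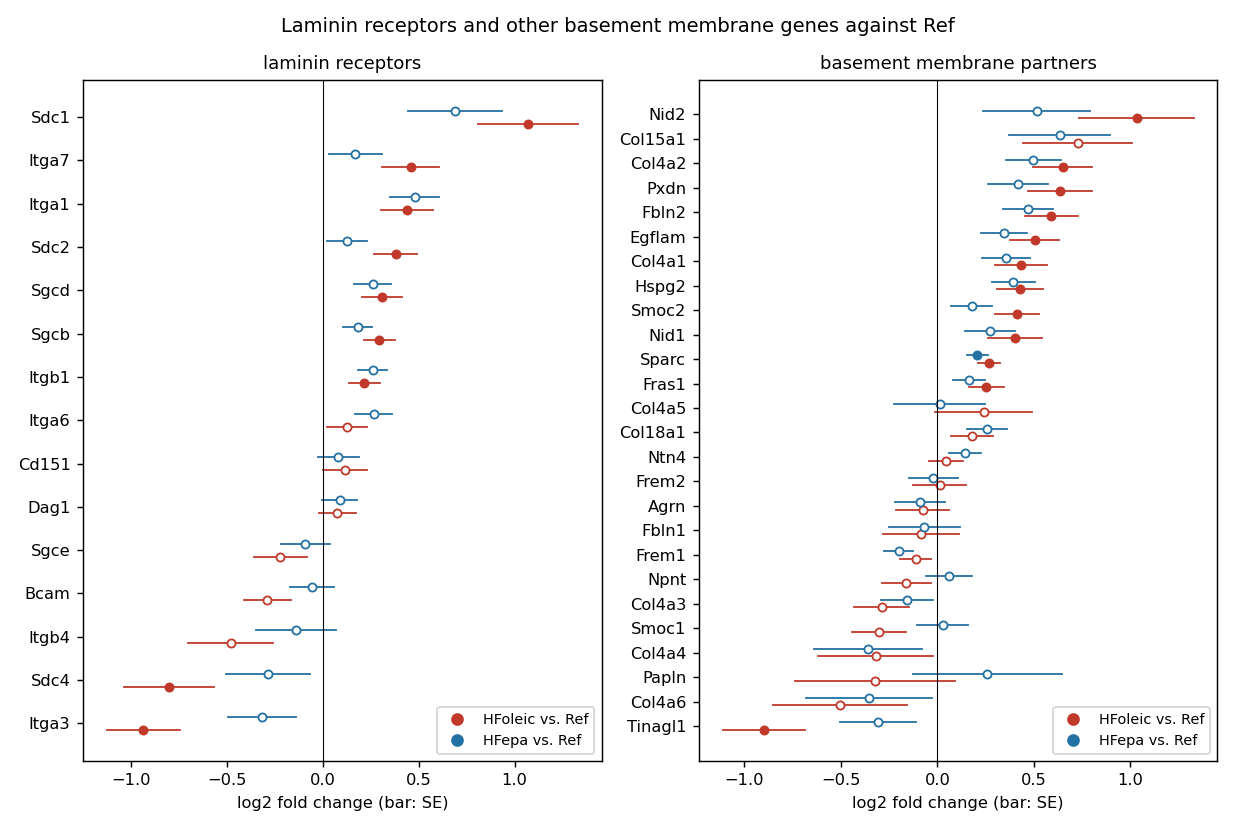
Log2 fold change (point) and SE (bar) of 15 laminin receptors and 26 other basement membrane genes in HFoleic vs. Ref (red) and HFepa vs. Ref (blue); filled points have an adjusted p under 0.05. Of the receptors 7 red points are filled above 0 and 2 below, and of the other genes 11 above and 1 below, while Sparc is the only filled blue point.

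Whether chains varied together within groups was examined after subtracting each group mean, which removes the difference that chose Lama1. Of the 36 pairs among the 9 chains, 4 had an adjusted p under 0.05 in a permutation test within groups (100000 permutations, two-sided, Benjamini-Hochberg over the 36 pairs, n = 20 arrays). Lama1 and Lama5 went together (Pearson r = 0.72, p = 0.000520, adjusted p = 0.0187; Spearman rho = 0.67, p = 0.00200, adjusted p = 0.0398). This r was 0.91 in Ref, 0.44 in HFoleic and 0.83 in HFepa, and 0.55 without the 2 arrays farthest from the median of Lama1. The shuffles ignored slide. On slides 1, 2 and 3 the HFepa means were 6.14, 7.20 and 8.35 for Lama1 and 11.97, 12.03 and 12.46 for Lama5. The HFoleic means were 5.94, 6.21 and 6.76 for Lama1 and 11.82, 11.47 and 11.93 for Lama5. In Ref they were 9.10, 9.04 and 9.09, and 12.35, 12.35 and 12.49. Whether a slide level was part of these relations was not tested.

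Lama4 and Lama5 had r = 0.69 (p = 0.00149, adjusted p = 0.0254, permutation test), which was 0.16 in Ref, 0.79 in HFoleic and 0.81 in HFepa, and rho = 0.53 (p = 0.0173, adjusted p = 0.101), so the relation did not pass by rank. Lama2 and Lamb3 had r = 0.65 (p = 0.00212, adjusted p = 0.0254, permutation test) and rho = 0.67 (p = 0.00221, adjusted p = 0.0398), with r = 0.61 without the 2 farthest arrays. Lama2 and Lama5 went in opposite directions (r = -0.65, p = 0.00449, adjusted p = 0.0404, permutation test), but not by rank after adjustment (rho = -0.63, p = 0.00624, adjusted p = 0.0703), with r = -0.52 without the 2 farthest arrays. Lama4 and Lama5 had r = 0.51 on the same basis. Lama1 with Lama4 had r = 0.62 (p = 0.0170, adjusted p = 0.0876, permutation test), which did not pass. It was 0.87 in HFepa, where replicates 1 and 6 were low for both genes, and 0.06 and 0.10 in Ref and HFoleic.

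Among the genes most like Lama1 over the 20 arrays, of 25601 compared, were Steap2, a metalloreductase (Pearson r = 0.97, Spearman rho = 0.94), Phpt1, a histidine phosphatase (r = 0.94), Bbs2 (r = 0.94), Gspt2 (r = 0.94), Cp, the copper protein ceruloplasmin (r = 0.94), Dpysl4 (r = 0.93) and 8430429K09Rik (r = 0.93). These values follow the group difference of Lama1, are a description, and have no test. In all 41 genes had r of 0.9 or more. After group means were subtracted, the nearest genes were Steap2 (r = 0.92), Adgrg3 (0.92), Gspt2 (0.91), Lancl3 (0.90), Nt5e, an ectoenzyme that makes adenosine (0.90), Igsf1 (0.90), Ntn1, the laminin-related guidance protein netrin (0.89), and Bbs2 (0.89). Steap2, Gspt2 and Bbs2 were thus in both lists. The mean log2 level of Steap2 was 8.38 in Ref, 6.88 in HFoleic and 7.33 in HFepa.

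Markers of other cells moved with these differences. Macrophage markers, 9 tested of 10, had a mean log2 level of 11.42 to 11.99 over Ref arrays, 12.86 to 14.16 over HFoleic arrays and 11.70 to 14.30 over HFepa arrays, and 7 of the 9 were called higher in HFoleic vs. Ref. Of all genes 15.2% were called higher in that contrast. The macrophage levels of Ref and HFoleic did not overlap. In HFepa the highest levels were 14.30 in replicate 1 and 13.86 in replicate 6, the HFepa arrays that were lowest for Lama4 and not above background for Lama1, and the other HFepa arrays were at 11.70 to 12.60. HFoleic replicate 1, the HFoleic array with the lowest Lamb3 and the highest Lama4, Lama5 and Lamb2, had the lowest macrophage level of its group, 12.86. In bulk tissue, fewer cells of a type and less RNA per cell cannot be told apart. With this level as a covariate, Lama1 differed by -0.89 in HFoleic vs. Ref, no chain was called in any contrast, and no probe of 39390 was called in HFoleic vs. Ref, where the covariate and the groups do not overlap and cannot be told apart.

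Schwann cell markers, 8 of 8 tested, had a mean level of 7.74 to 8.19 in Ref, 7.36 to 7.97 in HFoleic and 7.41 to 8.17 in HFepa, with 2 called lower in HFoleic vs. Ref. Adipocyte markers had 4 of 10 called lower, and progenitor or fibroblast markers 5 of 10 called higher, in HFoleic vs. Ref. Of all genes 16.7% were called lower and 15.2% higher in that contrast, so 2 of 8 Schwann cell markers is near the background. The progenitor or fibroblast list was at 12.20 to 12.72 in Ref, 12.80 to 13.53 in HFoleic and 12.36 to 13.00 in HFepa, so Ref and HFoleic did not overlap there either. No mesothelial (11 tested of 12) or endothelial (10 of 10) marker was called in any contrast. Of 16 epididymis markers only 6 were bright enough to be tested, none was called, and the mean level was 6.71 to 7.85 apart from HFepa replicate 2, at 9.15. Of 15 testis markers 8 were tested and 1 was called lower in HFoleic vs. Ref, which is also near the background. Of the epithelial markers 7 of 8 were tested, none was called, and the mean level was 5.71 to 8.80. The part that cell makeup had in the laminin differences was not tested beyond the covariate fits.

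**Figure D4:**
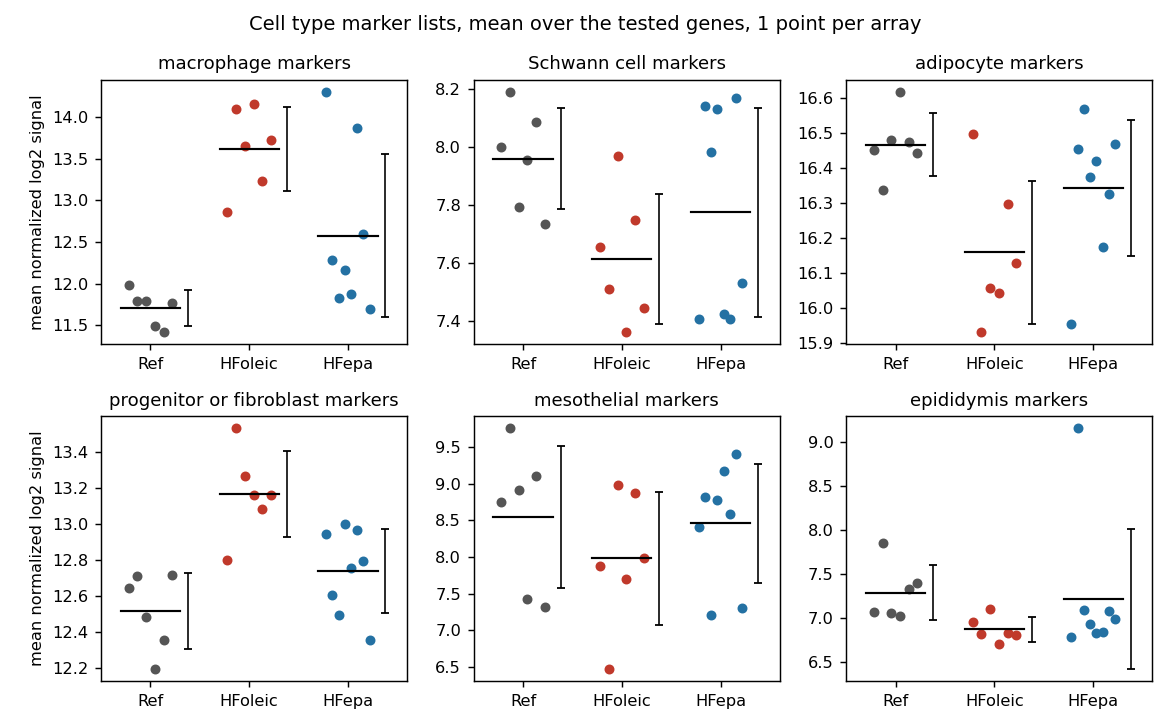
Mean log2 level of 6 cell type marker lists in each array, by group, with group mean (line) and SD (bar). The macrophage list separates Ref (up to 11.99) from HFoleic (from 12.86), with HFepa replicates 1 and 6 at 14.30 and 13.86, and the epididymis list has 1 array apart, HFepa replicate 2 at 9.15. The vertical scale differs between panels.

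**Figure D5:**
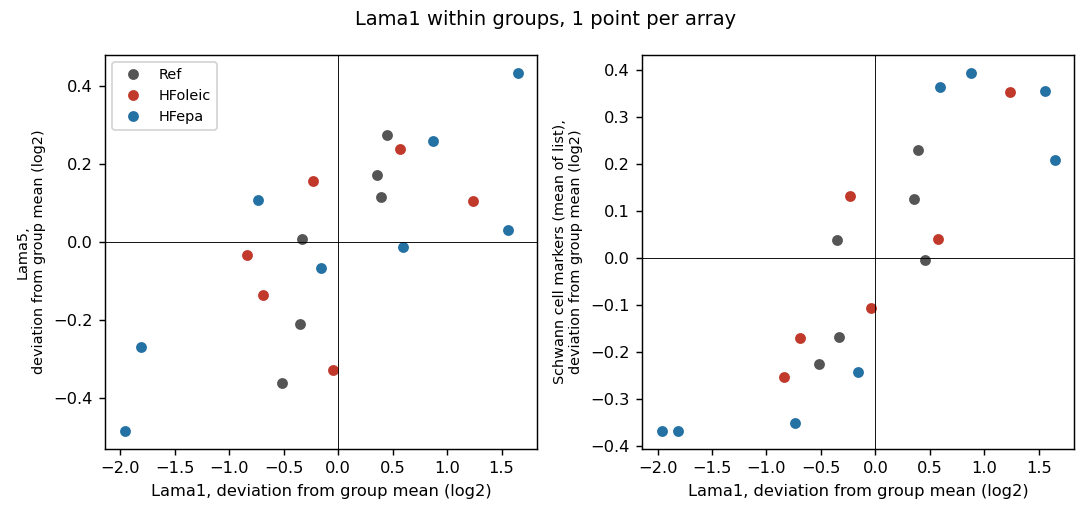
Deviations of Lama1 from its group mean against those of Lama5 (left) and of the mean of the Schwann cell markers (right), in log2 units, with 1 point for each of 20 arrays. Both rise with Lama1, with r = 0.72 on the left and r = 0.86 on the right.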

How the data were processed

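Total RNA from 20 VAT samples was labelled with Cy3 and hybridized by the authors to 1-colour Agilent arrays. The deposited scanner files hold spot intensity values from Agilent Feature Extraction 10.10.1.1, per the labels. A deposited log2 table of the authors' quantile-normalized values was used as an alternative only. Here, after the study's methods, the median signal intensity was log2 transformed and quantile normalized. The study's filter is not given in the sources used here, so marked outlier spots were set missing and spots well above background on at least 6 arrays were kept, which left 1258 tested probes that the authors' table does not hold. Median signals are not background-subtracted, which shrinks differences of dim probes. Groups were compared with limma 3.58.1 in R 4.3.3 (lmFit, contrasts, eBayes) over all 3 groups, with p-values adjusted by Benjamini-Hochberg across every tested probe and a threshold of 0.05. The genes named were the 9 chains, Lamc3, the 5 receptors and 5 partners with the smallest p per contrast, the 8 genes most like Lama1 on each measure and, beyond that rule and chosen after their values were seen, the other called genes of the 3 lists with Dag1, Itga6, Agrn and the remaining collagen IV chains. Some genes that this rule selects are not reported here. The members and lists were chosen with earlier results of these data known. Two-sided permutation tests shuffled arrays within groups. They did not keep slides apart, so a level shared by arrays of the same slide was not allowed for. The fit was tested on simulated data. Arrays have no read depth, so their number limits the precision. Labels give each array as a separate sample, and p-values measure the spread between these samples. Alternatives were the signal, background correction, scaling, filter, slide, replicate block, weights, marker covariates and leaving out each array.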

Additional observations from a re-analysis of the deposited data

Results flagged for a closer look

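Of 30 sets of arrays (10 chains in 3 groups), 1 held a value far from the rest of its group by Dixon's test, where chance gives about 1 in 20. Lamb3 in HFoleic replicate 1 was at a log2 level of 8.37, against 9.60 to 9.91 in the other 5 arrays.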

How the results depend on the processing

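The calls of Lama4 and Lama5 (lower) and Lamb3 (higher) in HFoleic vs. Ref held in 16 of 17 settings and in all 20 fits without 1 array, where 3 to 4 chains, 6 to 10 receptors and 9 to 13 partners were called. Over all probes the fits without 1 array called 9830 to 13175 in HFoleic vs. Ref. The exception among the settings was the macrophage level as a covariate, with 0 chains, 0 receptors, 0 partners and 0 of 39390 probes called. There the Lama1 difference of HFepa vs. HFoleic turned to -0.22 and that of Sdc1 in HFoleic vs. Ref to -0.17. With the processed (background-subtracted) signal scaled to the 75th percentile, the Sparc log2 fold change in HFoleic vs. Ref turned to -0.021. In HFepa vs. Ref, chains called fell to 0 with the macrophage covariate and the replicate block. Receptors called rose to 2 with normexp, the authors' log2 table and array weights, and to 1 with the stricter filter. These settings called 2.72%, 2.68%, 3.69% and 3.09% of all probes, against 2.26% in the main fit. The next settings, in which partners fell to 0, called 0.0381% (macrophage covariate) to 2.18% (mesothelial covariate) of all probes. The replicate block called 0.0635%, and the mean of all probes called 2.38% of genes. Partners called fell to 0 with the processed signal, median centring, no dim filter, the replicate block, only the compared groups and each of the 4 marker covariates, and rose to 2 with normexp, the authors' table, array weights and the mean of all probes. Array weights called 2 chains, 1 receptor and 2 partners in HFepa vs. HFoleic, where they called 4577 (11.6%) of all probes. Leaving out 1 array gave 0 to 1 chains, 0 to 2 receptors and 0 to 7 partners in HFepa vs. Ref. In HFepa vs. HFoleic it gave 0 to 2 chains, 0 to 1 receptors and 0 to 2 partners. Over all probes these fits called 130 to 2513 in HFepa vs. Ref, the fewest without Ref replicate 6 and the most without HFepa replicate 3. They called 0 to 2865 in HFepa vs. HFoleic, the most without HFepa replicate 1, against 1295 with slide as a block. Same-numbered arrays did not deviate together in a consistent direction (r from -0.59 to 0.56), so the numbers were not treated as pairs. With the replicate block Lama1 differed by -2.37 and -1.76 against Ref, and 7871 probes were called in HFoleic vs. Ref against 12148 without it. The cause of these changes was not tested. Of the 20 Lama1 values, 4 were not well above background.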

Other observations

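Deviations of Lama1 from its group means were set against those of all 13 cell type marker lists, after the values had been seen (permutation test within groups, two-sided, 100000 permutations, Benjamini-Hochberg over the 13 lists, n = 20 arrays). The Schwann cell list was the 1 of 13 that passed, with r = 0.86 (p = 8e-05, adjusted p = 0.00104) and rho = 0.88 (p = 8e-05, adjusted p = 0.00104). Its r was 0.76 in Ref, 0.87 in HFoleic, 0.88 in HFepa and 0.87 without the 2 arrays farthest from the median of Lama1. In the same permutation test the macrophage list had r = -0.68 (p = 0.0150, adjusted p = 0.0891). The testis list had r = 0.44 (p = 0.0206, adjusted p = 0.0891) and the adipocyte list r = 0.54 (p = 0.0317, adjusted p = 0.103). The pericyte or smooth muscle list had r = 0.56 (adjusted p = 0.140), the epithelium list 0.45 (0.147) and the epididymis list 0.31 (0.673). All arrays share the same normalization, and the shuffles ignored slide. Why these levels vary together, and whether a slide level was part of it, was not tested.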
